A study of Mus musculus with 30 samples.

Results

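The mesenchyme (MES) next to the olfactory epithelium (OE) of the mouse embryo was compared between E14.5 and E12.5, on the 6 arrays of 30 that carry these labels: 3 of the mesenchymal fraction of the olfactory epithelium at E14.5 (MES OE E14.5) and 3 of the mesenchymal fraction of the olfactory placode at E12.5 (MES E12.5). All 14807 genes with a single symbol on the array were read. Both groups were wild type and came from a C57Black6 x DBA cross as F1 embryos, with no treatment. Each array holds RNA of a pool of at least 4 embryos, and since the labels do not tell whether litters were shared, a p-value here covers the variation among these pools, which may be partly technical. The tissue was dissected by hand, each fraction is a mixture of cell types, and in such bulk RNA fewer cells of a type and less RNA per cell cannot be told apart. The other 24 arrays of the series are the epithelial (EPI) fractions, the mesenchyme at E11.5, both fractions of the vomeronasal organ (VNO) at E14.5 and a Dlx5 mutant comparison; those of the time course are used here for comparison only and the Dlx5 arrays are not used.

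The nasal mesenchyme is a loose tissue, largely of cranial neural crest origin, that lies between the olfactory epithelium and the forebrain. Olfactory axons and GnRH neurons cross it on the way to the brain. It gives rise to the cartilage of the nasal capsule, to the membrane bones around it and to the fibrous layer under the epithelium, and it exchanges WNT, BMP, FGF and retinoic acid signals with that epithelium. In cells that form bone, the factors Runx2 and Sp7 drive the genes of mineralised matrix, and in cartilage Sox9 with Sox5 and Sox6 drives those of aggrecan and the matrilins.

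RMA values on the log2 scale were read, where a difference of 1 is a doubling of signal, and values of different genes are not compared with each other. Array medians lay between 7.10 and 7.17 at E12.5 and between 7.05 and 7.12 at E14.5. Replicate arrays correlated at 0.984 to 0.989 (Pearson's r across clusters, which are not independent replicates). A gene was called changed where limma's adjusted p did not exceed 0.05 and the log2 fold change was 0.9 or more in either direction. By this rule 374 genes (2.53%) were higher and 248 (1.67%) lower at E14.5, and the 3 arrays of each age did not overlap for any of them. Without overlap in either direction were many more, 17.8% of all genes higher and 47.3% lower. The median log2 fold change of all genes was −0.15 on the values as deposited, 0.01 after quantile normalization and −0.09 after centring of each array on its median. The calls moved with it, to 470 rises (3.17%) and 129 falls (0.871%) with quantile normalization and to 429 (2.90%) and 186 (1.26%) with centring, so that 60.1%, 78.5% and 69.8% of the called genes were higher. Rank Products, the test in the study's methods, called 268 higher (1.81%) and 46 lower (0.311%). Of the 374 higher genes 372 were also called after both scalings, and of the 248 lower genes 127 were. Below, a call that a scaling ended is named beside its value. Every count of called genes in a list is to be read beside the 2.53% higher and 1.67% lower of all genes.

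The fraction labels were checked first on marker genes of each cell type. At E12.5, 16 of 18 mesenchymal markers were higher in all MES arrays than in all EPI arrays. At E14.5 this held for 12 of 18, and after centring for 3, with 2 higher in the EPI. Markers of the sustentacular and glandular epithelium, the supporting cells of the OE, had a mean level of 5.44 to 5.51 on the MES arrays at E12.5 and of 7.40 to 7.52 at E14.5, against 7.53 to 8.01 on the EPI OE arrays at E14.5. Markers of surface and respiratory epithelium lay between 7.34 and 7.41 on the MES arrays at E12.5 and between 8.17 and 8.19 at E14.5, and in the EPI OE at E14.5 between 8.64 and 9.11. Both lists were thus higher in the MES at E14.5 than at E12.5 and stayed below the EPI OE on all arrays, while the EPI OE arrays at E14.5 spread widely in mesenchymal markers, from 9.83 to 10.37. The part of these cell types in the changes below was not tested.

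**Figure D1:**
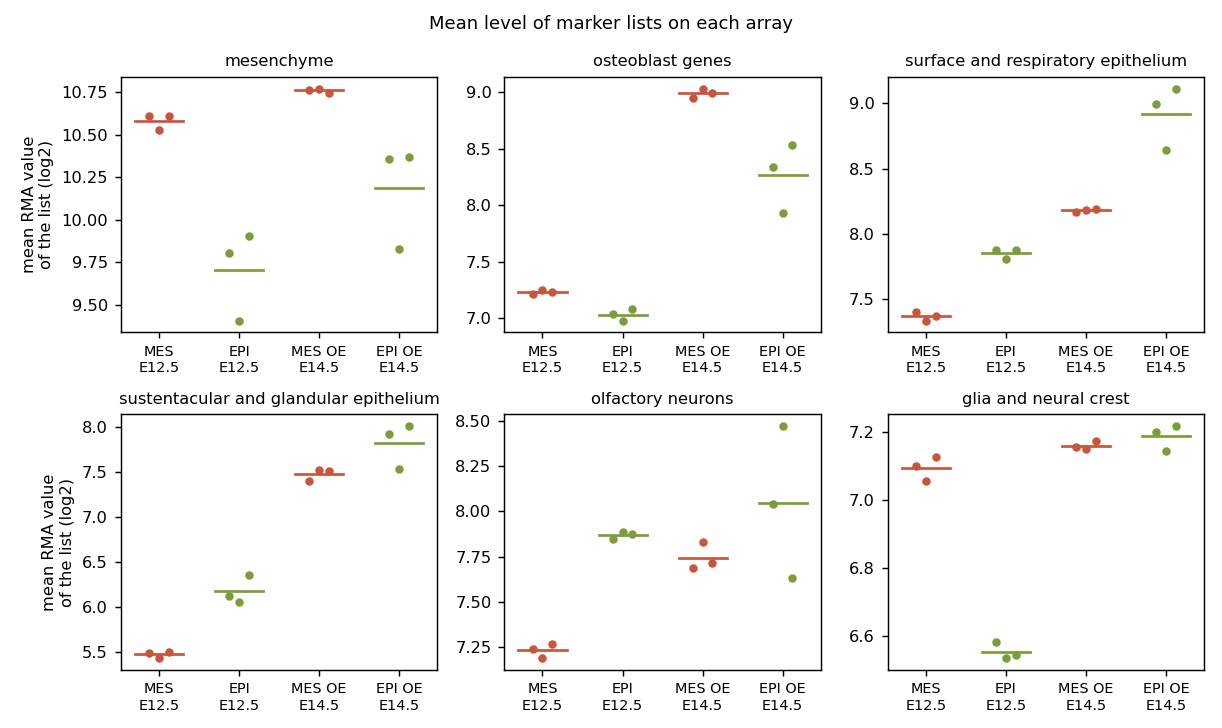
Mean RMA value (log2) of the genes of each list on each array, with a bar at the group mean; red marks MES and green EPI. The sustentacular list lies at 5.44 to 5.51 on the MES arrays at E12.5 and at 7.40 to 7.52 at E14.5.

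Among the 20 largest rises, 4 were osteoblast genes, 1 was a cartilage gene and 6 were markers of sustentacular and glandular epithelium, while the 20 largest falls held 3 forkhead and 2 T-box transcription factors. The largest rise was that of Ibsp, by 6.83 on the log2 scale (SE 0.10, limma adjusted p = 2.1e-05). Its mean at E12.5, 3.85, was near the median level of olfactory receptor genes there, 3.53, and whether values this low lie above background was not tested, so no exact fold is given for it. The same limit holds for other genes that started this low, such as Mmp13, Olfr812, Mcpt2 and Adipoq. The largest fall was that of Tbx22, by 3.23 (SE 0.04), or 9.35-fold. Only 49 genes rose and 5 fell by 2 or more on the log2 scale.

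**Figure D2:**
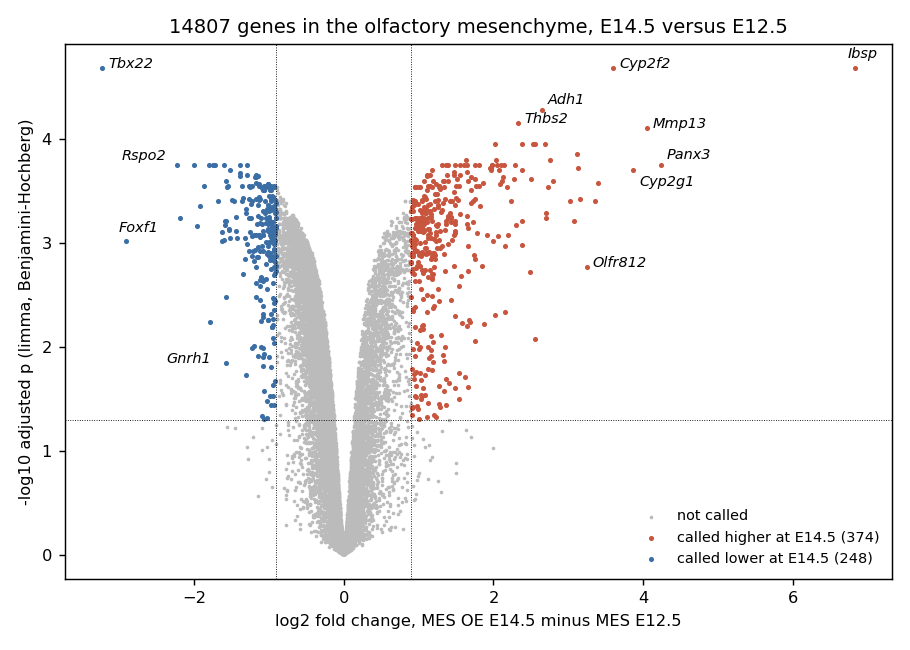
Log2 fold change (x axis) against -log10 of the adjusted p (y axis) for 14807 genes, with dotted lines at the thresholds. Red points are the 374 genes called higher and blue points the 248 called lower at E14.5; the rises reach 6.83 and the falls 3.23.

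**Figure D3:**
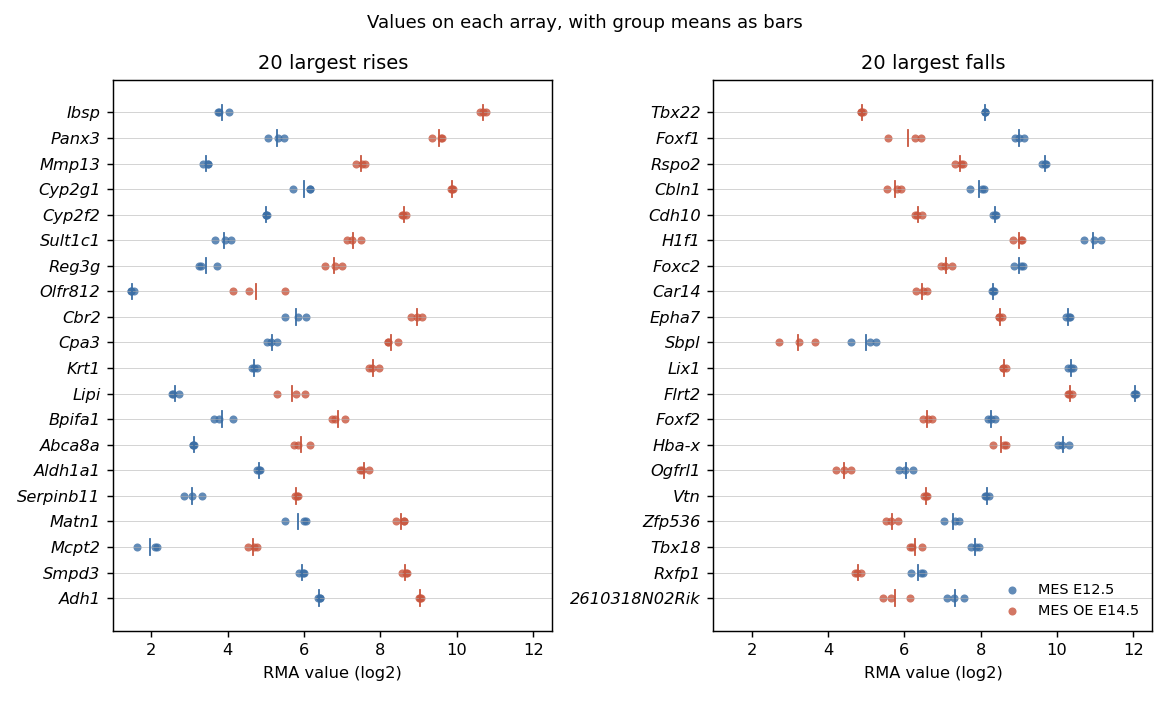
RMA value (log2) of the 20 largest rises and the 20 largest falls on each MES array, in blue for E12.5 and red for E14.5, with a bar at the group mean. In every one the 3 arrays of one age lie apart from the 3 of the other.

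Of 19 osteoblast genes measured 13 rose and 0 fell, with a median log2 fold change of 1.56 against −0.15 for all genes, and all 13 were called after both scalings. Ibsp, which encodes bone sialoprotein, a mineral-binding protein of bone matrix, read 3.77, 3.75 and 4.04 at E12.5 and 10.68, 10.76 and 10.61 at E14.5. The 2 ages lay far apart, with little spread within each. Panx3, a pannexin channel of bone and cartilage cells, was at 5.06, 5.48 and 5.31 and then at 9.36, 9.59 and 9.62, a rise of 4.24 (SE 0.13). Mmp13, the collagenase of bone and of hypertrophic cartilage, went from 3.36, 3.49 and 3.47 to 7.35, 7.60 and 7.51, a rise of 4.05 (SE 0.08). In all of these the ages were far apart relative to the spread of their arrays.

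The factor Sp7 (osterix), needed for osteoblast formation, was already present at 6.93, 7.05 and 7.05 and reached 9.19, 9.05 and 9.20, a rise of 2.14 (SE 0.07, adjusted p = 0.00018). Alpl, the phosphatase that frees phosphate for mineral, rose by 2.03 (SE 0.06), from 7.95 to 8.08 up to 9.99 to 10.08. Among genes of mineral control, Smpd3 (neutral sphingomyelinase) rose by 2.69, Phex (an endopeptidase of phosphate balance) by 1.96, Dmp1 (a matrix protein of osteocytes) by 1.56 and Ifitm5 (a membrane protein of osteoblasts) by 2.18. Tnn (tenascin-W) rose by 1.64, Col1a1, the main collagen chain of bone, by 1.11 and Dlx5, a homeobox factor upstream of Sp7, by 0.96. The rise of Omd (osteomodulin), 1.21 with an SE of 0.37 and an adjusted p of 0.045, was the least precise, and Omd was at 0.95 to 1.21 in the 4 cases where leaving out 1 array (replicates 1 and 3 at E12.5, 1 and 2 at E14.5) ended its call. The 6 members not called lay between −0.15 and 0.41, with Col1a2 at 0.41 and Sparc at 0.40 on the high side. Mepe, a gene of mature osteocytes, stayed at 4.57 to 4.88 on all 6 arrays.

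The promoters of the 2 largest changes with a window in RefSeq are shown, since the RUNX core letters TGTGGT, the motif of the osteoblast factor Runx2, were searched in them. Each is the 200 bases before the start, from RefSeq on GRCm38.p6. Capitals mark this core, the NF-Y box CCAAT and the cell cycle homology (CHR) core TTTGAA, read on either strand.
Ibsp, chr5:104299087-104299286, plus strand: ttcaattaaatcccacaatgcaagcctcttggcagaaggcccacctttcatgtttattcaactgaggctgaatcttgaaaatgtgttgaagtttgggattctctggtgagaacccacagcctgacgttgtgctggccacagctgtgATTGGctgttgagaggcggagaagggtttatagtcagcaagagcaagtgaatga
Mmp13, chr9:7272314-7272513, plus strand: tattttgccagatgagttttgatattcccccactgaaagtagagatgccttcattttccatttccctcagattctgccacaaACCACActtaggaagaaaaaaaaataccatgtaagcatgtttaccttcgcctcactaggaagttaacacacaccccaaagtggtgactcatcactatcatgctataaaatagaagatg
Mmp13 holds the RUNX core letters 1 time and Ibsp the NF-Y box 1 time. Windows of 300 bases, which also take in the start of the gene, were counted for all genes. Of the 16 windows that the 12 matched osteoblast genes have, 4 (25%) held the RUNX core, against 16.8% of all 32851 windows. These are matches of letters and say nothing of binding.

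Cartilage genes moved in both directions. Of 24 measured, 3 rose and 3 fell, with a median of 0.23. The matrix genes Matn1 (matrilin of cartilage), Matn3 and Acan (aggrecan) rose by 2.70, 1.70 and 1.25. Matn1 read 6.05, 5.50 and 5.99 at E12.5 and 8.39, 8.63 and 8.61 at E14.5. Of the factors that drive this programme, Sox9 and Sox5 were called lower and Sox6 was not called. Sox9 went from 10.69, 10.60 and 10.67 to 9.48, 9.31 and 9.39, a fall of 1.26 (SE 0.06, limma adjusted p = 0.00037). Sox5 fell by 1.02 and Trps1, also on the list, by 1.13, both not called after quantile normalization. Col2a1, the collagen of cartilage, was at 10.71 to 10.76 and at 10.60 to 10.63, a difference of −0.12 that was not called (adjusted p = 0.071).

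Genes of osteoclasts, the cells that resorb bone, were measured for all 12 listed, and 3 rose and 0 fell. Mmp9, a gelatinase, went from 6.05, 6.24 and 6.16 to 8.45, 8.48 and 8.66, a rise of 2.38 (SE 0.08). Atp6v0d2, a subunit of the proton pump, rose by 1.24, and Acp5 (tartrate-resistant acid phosphatase) by 0.97, although without replicate 2 of MES E12.5 Acp5 was at 0.90 and no longer called. Ctsk (cathepsin K) was 0.72 higher, short of the minimum fold, and Calcr, the calcitonin receptor, was at −0.20.

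Among 31 collagens of fibrils and of the networks bound to them, 4 rose and 0 fell. Col16a1 rose by 1.17, Col6a3 by 1.12, Col1a1 by 1.11 and Col6a1 by 1.02, and the median of the list was 0.13. Col3a1, at 11.64 to 11.73 and then 11.79 to 11.85, differed by 0.13 and was not called. The 6 chains of basement membrane collagen (Col4a1 to Col4a6) lay between −0.55 and 0.02, with none called.

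Small leucine-rich proteoglycans bind collagen fibrils and set their width. Of 15 measured 5 rose and 0 fell, with a median of 0.67, and 7 rose after quantile normalization and 3 by Rank Products. Aspn (asporin) read 8.11, 7.86 and 8.28 at E12.5 and 10.39, 10.31 and 10.24 at E14.5, a rise of 2.23 (SE 0.12). Dcn (decorin) went from 9.23, 9.14 and 9.36 to 11.21, 11.21 and 11.24, a rise of 1.97 (SE 0.07). Lum (lumican) rose by 0.96 and Podn (podocan) by 0.91, and without replicate 2 of MES OE E14.5 Lum was at 0.90, just under the threshold.

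Eln, the gene of elastin, rose by 1.75 (SE 0.07), from 8.23, 8.26 and 8.34 to 9.91, 10.09 and 10.08. Of the 20 genes of elastic fibres it was 1 of 2 that rose, with Ltbp4 at 1.01, a protein needed for elastin assembly, while Emilin2 fell by 1.09. Fbn2, the fibrillin of the embryo, was at −0.17 and Mfap2 at 0.00.

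Of 29 tenascin, thrombospondin and other matricellular genes, which tune how cells hold the matrix, 7 rose and 2 fell. Thbs2 (thrombospondin 2) went from 9.14, 9.09 and 9.07 to 11.44, 11.43 and 11.41, a rise of 2.33 (SE 0.05, adjusted p = 6.9e-05). Smoc2 rose by 1.38, Npnt (nephronectin, an integrin ligand) by 1.26, Ccn3 by 1.17, Tnc (tenascin C) by 1.10 and Postn (periostin) by 1.02. Tgfbi fell by 1.38 (SE 0.05), from 10.02 to 10.04 down to 8.59 to 8.72, and Smoc1, a relative of Smoc2, fell by 0.93, a call that both scalings ended. Proteases and inhibitors of the matrix had 5 rises and 0 falls of 40: Mmp13 and Mmp9 above, Htra1 (1.33), Adam12 (1.08) and Adamts12 (1.07).

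Among 11 tendon genes Egr1, an immediate early factor, rose by 1.32 and Scx (scleraxis), the factor of tendon progenitors, fell by 1.20 (SE 0.12), from 9.45 to 9.51 down to 8.01 to 8.41, while Tnmd (tenomodulin) was at 0.10. Of 12 fat cell genes Cd36, Ebf2 and Adipoq rose by 1.37, 1.34 and 1.09, but Pparg (0.17) and Fabp4 (0.12) were not called. The 3 rises were also called after both scalings and by Rank Products. Adipoq read only 3.04 to 3.18 and 4.19 to 4.22. Of 18 genes of smooth muscle and pericytes 0 were called by limma, by limma after centring or by Rank Products and 1 after quantile normalization. An adjusted p of at most 0.05 by limma was reached by 8 above 0 and 3 below, beside 13.1% and 39.2% of all genes. The highest were Anpep at 0.70 and Cspg4 at 0.69.

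**Figure D4:**
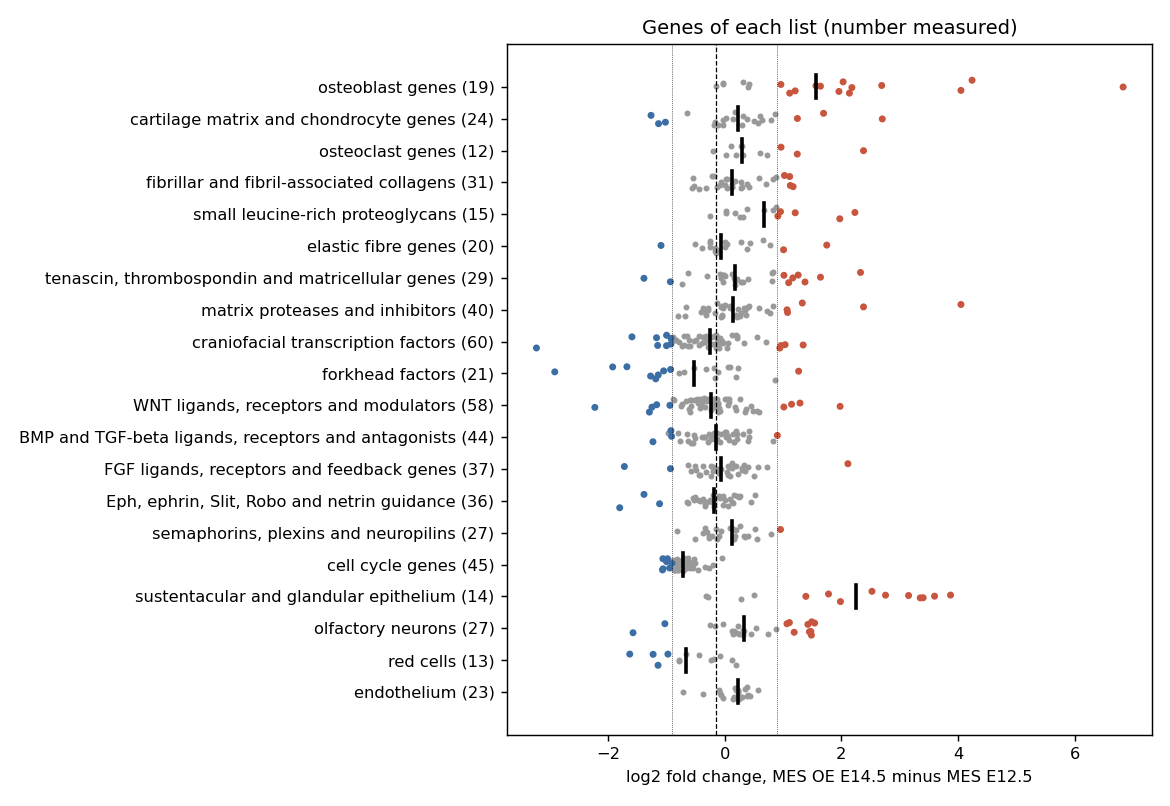
Log2 fold change of each gene of 20 lists, in red where called higher, blue where called lower and grey otherwise; black bars are list medians and the dashed line is the median of all genes, −0.15. The osteoblast list has its median at 1.56 and the cell cycle list at −0.72.

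Transcription factors of the early face were among the largest falls. Of 60 craniofacial factors measured 4 rose and 8 fell, with a median of −0.26, and after quantile normalization 3 fell. Tbx22, the T-box factor of the palate and nasal mesenchyme whose loss gives cleft palate in humans, went from 8.11, 8.11 and 8.10 to 4.91, 4.86 and 4.88. Its arrays within an age were within 0.05 of each other. Tbx18 went from 7.88, 7.74 and 7.96 to 6.14, 6.21 and 6.46, a fall of 1.59 (SE 0.11). Gsc (goosecoid) fell by 1.15, a call kept after both scalings, Pax9 by 1.17 and Barx1 and Six2 by 1.00, these 3 not after quantile normalization, and Nr2f1 and Tbx3 by 0.92, not after either. The 4 that rose were Ebf2 (1.34), Meox2 (1.04), Dlx5 (0.96) and Sim1 (0.95). Msx1, a homeobox gene of undifferentiated facial mesenchyme, was at −0.85 and Twist1 at −0.84, short of the minimum fold.

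Of 21 forkhead factors, 8 fell and 1 rose, with a median of −0.53, and the falls numbered 5 after quantile normalization and 7 after centring. Foxf1, a target of hedgehog signals in mesenchyme, read 8.89, 8.99 and 9.14 at E12.5 and 6.43, 5.56 and 6.29 at E14.5, a fall of 2.91 (SE 0.24, adjusted p = 0.00094). The spread at E14.5 was wider than at E12.5, yet the ages stayed more than 2 units apart. Foxf2, its paralog, fell by 1.68 (SE 0.09), from 8.20, 8.38 and 8.26 to 6.73, 6.61 and 6.48. Foxc2 fell by 1.92 (SE 0.11) and its paralog Foxc1 by 1.14, both factors of mesenchyme around the eye and in the skull. Foxd2 (1.27), Foxp2 (1.18), Foxp4 (1.05) and Foxl2 (0.93) fell as well, of which Foxc1 and Foxp4 were not called after quantile normalization and Foxl2 after neither scaling. The one rise was that of Foxa1 (1.27), a factor of endoderm and of gland and airway epithelium, which moved beside the epithelial markers above.

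In the WNT pathway, 4 of 58 genes rose and 5 fell, beside 2.53% and 1.67% of all genes. Rspo2, a secreted R-spondin that makes cells more sensitive to WNT, went from 9.69, 9.61 and 9.72 to 7.33, 7.48 and 7.54, a fall of 2.22 (SE 0.07, adjusted p = 0.00018). Lef1, a nuclear factor through which WNT acts, fell by 1.29 (SE 0.04), from 10.77 to 10.81 down to 9.49 to 9.54. Axin2, a feedback gene of the pathway, was at −0.66 and not called. Among ligands Wnt2 rose by 1.29 and Wnt8b fell by 1.25. Secreted inhibitors split: Sfrp4 rose by 1.98 (SE 0.06), from 5.31 to 5.46 up to 7.32 to 7.41, Sfrp2 by 1.15 and Sostdc1 by 1.01, while Frzb fell by 1.16 and Sfrp1 by 0.94, the last not called after either scaling. Wnt5a, a ligand made by facial mesenchyme, was at −0.41.

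BMP and TGF-beta genes gave 1 rise and 3 falls of 44, beside 2.53% and 1.67% of all genes. Bmper, a BMP-binding protein, went from 9.74, 9.77 and 9.80 to 8.48, 8.54 and 8.61, a fall of 1.23 (SE 0.05). The BMP antagonist Chrdl1 rose by 0.90, and Fst (follistatin) and Id3, a BMP target, fell by 0.92 and 0.91. These 3 were near the threshold, and neither scaling called Fst or Id3. The ligands Bmp4 (−0.50), Bmp5 (0.84) and Bmp7 (−0.26) were not called. Of 37 FGF genes Fgf7, a ligand made by mesenchyme that acts on epithelium, rose by 2.11 (SE 0.09), from 5.97, 6.21 and 6.16 to 8.32, 8.15 and 8.21. Flrt2, a membrane protein that binds FGF receptors and guides cells, fell by 1.72 (SE 0.05), from 12.05, 12.03 and 12.07 to 10.30, 10.40 and 10.29. Fgf17 fell by 0.93, which neither scaling called. Fgfr1, mutated in Kallmann syndrome, was at −0.21 and Fgf8, its ligand, at −0.23.

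Of 14 hedgehog genes, the antagonist Hhip rose by 0.96 and Foxf1 fell, while Ptch1 and Gli1, the direct readouts of the pathway, were at −0.34 and −0.13. In retinoic acid metabolism 3 of 20 genes rose and 3 fell. The enzymes Aldh1a1 (2.76), Adh1 (2.64) and Adh7 (1.66) rose. Adh1 read 6.41, 6.43 and 6.35 and then 9.01, 9.05 and 9.06, and Aldh1a1 is at the same time on the list of sustentacular markers. Aldh1a2 and Aldh1a3, the other enzymes that make retinoic acid, were at −0.71 and −0.76. Cyp26a1 and Cyp26b1, which break it down, fell by 1.08 and 0.93, and Stra6, a retinol transporter, by 1.09. Cyp26b1 was called after neither scaling and Stra6 not after quantile normalization.

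Among 24 IGF and imprinted growth genes Dlk1, a Notch-related protein of progenitor cells, rose by 1.31 (SE 0.04), from 8.79, 8.84 and 8.80 to 10.11, 10.14 and 10.12, and Dcn was the other rise. Igf2 stood at 12.19 to 12.24 and at 12.37 to 12.45.

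Cues for axons and migrating cells were also read. Of 36 Eph, ephrin, Slit, Robo and netrin genes 0 rose and 3 fell, beside 2.53% and 1.67% of all genes. Epha7 went from 10.35, 10.23 and 10.32 to 8.48, 8.55 and 8.48, a fall of 1.80 (SE 0.05). Its relative Epha4 fell by 1.38 (SE 0.05), from 10.59 to 10.65 down to 9.18 to 9.29, and the ligand Efna2 by 1.12, which quantile normalization did not call. Of 27 semaphorins, plexins and neuropilins 1 rose, beside 2.53% of all genes. This was Sema3d, by 0.96 (SE 0.04), from 8.84, 8.86 and 8.86 to 9.77, 9.83 and 9.82. Sema3a, a repellent of GnRH and olfactory axons, was at 10.50 to 10.54 and 10.16 to 10.29, a difference of −0.31, and its receptor Nrp1 at 0.79, both not called. Cdh10, a cadherin, fell by 2.00 (SE 0.06), and Cbln1, a secreted synapse organiser, by 2.18 (SE 0.14). Of 25 integrins and laminins only Itgbl1 rose (1.27), and of 17 neurotrophin and GDNF genes only Gfra2, the neurturin receptor (1.13), with Gdnf itself at −0.58. Both counts stand beside the same 2.53% of all genes.

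Genes of the cell cycle were lower by small amounts. Of 45 measured 0 rose and 7 fell, the median was −0.72 and the range −1.07 to −0.04, and 43 had an adjusted p of at most 0.05 below 0, against 39.2% of all genes. Relative to all genes the median was lower by 0.57. After quantile normalization the median was −0.45 and 0 were called, and after centring 5 were called, so these calls depend on the scale. Kif2c, a motor of the mitotic spindle, went from 10.33, 10.30 and 10.35 to 9.20, 9.30 and 9.29, a fall of 1.07 (SE 0.05). Mcm7 and Bub1 fell by 1.06, and Cdc25c (1.00), Gins1 (0.98), Cdc6 (0.94) and Mcm3 (0.90) were the others. Mcm7, Mcm3, Cdc6 and Gins1 serve the start of DNA replication, Bub1 the spindle checkpoint and Cdc25c entry into mitosis. Mki67, the proliferation antigen, was at 10.29 to 10.58 and 9.68 to 9.81, a difference of −0.73.

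Promoters of Kif2c, the largest fall of the list, and of Bub1 and Mcm3 are shown, since they differ in the NF-Y box, which is common in genes of dividing cells.
Kif2c, chr4:117178773-117178972, minus strand: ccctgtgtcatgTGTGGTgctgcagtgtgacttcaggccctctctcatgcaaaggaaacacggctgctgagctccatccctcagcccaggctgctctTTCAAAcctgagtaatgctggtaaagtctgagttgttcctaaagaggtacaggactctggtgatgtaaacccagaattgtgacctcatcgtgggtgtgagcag
Bub1, chr2:127831860-127832059, minus strand: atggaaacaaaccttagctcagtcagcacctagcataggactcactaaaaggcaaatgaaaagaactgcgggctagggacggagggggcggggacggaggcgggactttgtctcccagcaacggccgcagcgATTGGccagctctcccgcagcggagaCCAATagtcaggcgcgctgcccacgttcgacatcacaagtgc
Mcm3, chr1:20820313-20820512, minus strand: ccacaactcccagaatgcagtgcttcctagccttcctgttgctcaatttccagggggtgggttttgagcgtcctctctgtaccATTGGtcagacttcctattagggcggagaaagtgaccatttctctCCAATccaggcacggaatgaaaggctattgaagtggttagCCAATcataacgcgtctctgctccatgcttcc
Bub1 holds the box 2 times and Mcm3 3 times, in either orientation. Kif2c holds it 0 times and has the CHR core and the RUNX core 1 time each, and the window of Cdc6, not shown, holds none of these letters. Over the 41 windows of 36 matched cell cycle genes, 31 (75.6%) held CCAAT, against 37.4% of all windows, and 20 (48.8%) held TTTGAA, against 17.9%. Over the 6 windows of the 5 called genes that matched, 4 (66.7%) held CCAAT and 1 (16.7%) held TTTGAA. The RUNX core was in 19.5% of the 41 windows, near the 16.8% of all windows, and in 2 (33.3%) of the 6 windows of called genes.

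Of 17 CDK inhibitors and growth arrest genes 0 rose and 1 fell (Gas2, 0.93, called after neither scaling), with Cdkn1a at 0.64 and Cdkn1c at 0.16. Of 19 genes of ribosome biogenesis and translation 2 fell, Mycn by 1.00 and Mrto4 by 0.95, of which quantile normalization called neither.

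Genes of other cell types changed beside those of the mesenchyme. Of 14 markers of sustentacular and glandular epithelium 10 rose and 0 fell, with a median of 2.25. Cyp2g1, a cytochrome P450 of the olfactory mucosa, went from 6.16, 5.70 and 6.15 to 9.87, 9.89 and 9.85, a rise of 3.87 (SE 0.14). Cyp2f2 went from a mean of 5.01 (SD 0.0078, n = 3) to 8.55, 8.59 and 8.67, a rise of 3.60 (SE 0.05). Sult1c1 (3.40), Reg3g (3.35), Cbr2 (3.15) and Aox2 (2.52) followed. At E14.5 the mean of Cyp2g1 was 9.87 in the MES and 9.46 in the EPI OE on the values as deposited. Of the 14 markers, 3 were higher on all MES arrays at E14.5 and 4 on all EPI OE arrays. After centring these were 0 and 10, so the order of the fractions depends on the scale. Of 23 markers of surface and respiratory epithelium 6 rose, led by Reg3g and Bpifa1 (3.02, a secreted protein of airway lining). The median of this list was 0.59, and 20 members lay above 0. By limma 18 reached an adjusted p of at most 0.05 above 0 and 1 below, beside 13.1% and 39.2% of all genes. Krt5 and Krt14, keratins of basal cells, were both at −0.02, Epcam was at 0.59 and Trp63 at −0.35, the low end of the list.

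Markers of olfactory neurons gave 9 rises and 2 falls of 27. Omp, the olfactory marker protein of mature neurons, read 6.14, 5.81 and 6.41 and then 7.68, 7.52 and 7.59, a rise of 1.48 (SE 0.16). Cnga2 (1.54), Rtp1 and Rtp2 (1.49 each) and Snap25 (1.45) rose too. Gnrh1 fell by 1.57 (SE 0.33, adjusted p = 0.014), from 7.26, 6.83 and 7.74 to 5.65, 6.22 and 5.24. Its arrays varied by almost 1 unit within each age and did not overlap between them. Chrna3, a nicotinic receptor subunit, fell by 1.02 and lost its call in 4 of the 6 cases where 1 array was left out (replicates 1 and 2 at E12.5, 1 and 3 at E14.5), where its fall was as small as 0.85 on the log2 scale (−0.85). Of the 717 olfactory receptor genes measured 54 (7.53%) were called higher and 16 (2.23%) lower, with a median of 0.16, and their median level was 3.53 at E12.5 and 3.78 at E14.5. Olfr812, at 1.46, 1.46 and 1.54, rose to 5.50, 4.55 and 4.14.

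In glia and neural crest the median of 19 markers was 0.03, against −0.15 for all genes. Of these markers 3 rose, Sostdc1 among them, and 2 fell. Sox10, the factor of olfactory ensheathing glia, fell by 1.08 (SE 0.08), from 8.08, 8.17 and 8.06 to 6.94, 7.18 and 6.96, and Frzb was the other. Of 18 skeletal muscle markers 3 rose, Tnnc1 (1.75), Tnni1 (1.19) and Myog (0.92). Of 13 red cell markers 4 fell and 0 rose. Hba-x, the embryonic alpha globin, fell by 1.63 (SE 0.12), from 10.30, 10.04 and 10.13 to 8.65, 8.32 and 8.62, and Hbb-y, the embryonic beta globin, by 0.97, which quantile normalization did not call. Globin genes are close copies of each other and their probes may share signal.

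Of 23 leukocyte markers 2 rose, and both are genes of mast cells. Cpa3 (carboxypeptidase A3) went from 5.14, 5.03 and 5.30 to 8.20, 8.46 and 8.19, a rise of 3.13 (SE 0.11), and Cma1 (chymase) rose by 1.36. Mcpt2, a mast cell protease outside the list, rose by 2.70 (SE 0.16), from 1.64 to 2.15 up to 4.53 to 4.77. Small rises were common in the leukocyte list, with a median of 0.32 against −0.15 for all genes and 21 of 23 above 0. Limma gave 14 of its markers an adjusted p of at most 0.05 above 0 and 0 below, beside 13.1% and 39.2% of all genes. Csf1r, Aif1 and Cd68 of macrophages lay between 0.01 and 0.37. Of 23 endothelial markers 0 were called by limma, and quantile normalization and Rank Products also called 0. An adjusted p of at most 0.05 by limma was reached by 12 above 0 and 2 below, beside 13.1% and 39.2% of all genes. Small rises were thus common in this list. Pecam1 and Cdh5 were at 0.24 and 0.23.

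Of 35 genes that the study named for this mesenchyme or used as its qPCR markers, 20 rose and 1 fell, with a median of 1.07. They had been chosen on arrays that include these, so this is not independent evidence of their direction. Beside those above, Fmo2 (1.98), Ndrg1 (1.54), Ehf (1.48), Atf5 (1.47), Cavin1 (1.22) and Lgals9 (1.21) rose, and Epha3 (0.12), Gata3 (−0.25) and Sema3c (−0.28) were among those not called. Fmo2, Ehf and Foxj1 served as markers of epithelium and Sp7 and Cnmd, at 0.57, as markers of mesenchyme. The study's lists of changed mesenchymal genes set E14.5 against E11.5, not E12.5. For Acan, Akap6, Atf5, Krt18, Myt1l, Ndrg1, Syt1 and Tpd52 it reports expression in the embryonic OE.

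The same genes were set beside the other groups of the time course. At E11.5 the mesenchyme had Ibsp at 3.79 and Mmp13 at 3.49, close to their E12.5 values, while Aspn there stood at 3.48 and Thbs2 at 6.96, below their E12.5 means. Tbx22 (8.18), Foxf1 (9.60) and Rspo2 (9.65) were at E11.5 close to their E12.5 means or above them. The VNO fractions did not follow their labels in mesenchymal markers, although markers of surface epithelium, at 8.51 to 8.73 in the MES and 9.27 to 9.39 in the EPI, did. Mesenchymal markers had a mean level of 10.43 to 10.54 on the MES VNO arrays and of 10.58 to 10.62 on the EPI VNO arrays, and osteoblast genes of 7.94 to 8.06 and of 9.06 to 9.07. With this limit on the label, on the arrays labelled as mesenchyme of the VNO at E14.5 several of the genes that fell were higher than in the MES OE. Tbx22 was at 7.95 there against 4.88 in the MES OE, Foxf1 at 8.41 against 6.10, Foxf2 at 8.12 against 6.61 and Pax9 at 10.66 against 9.14. Lef1, at 7.66, was instead lower than in the MES OE (9.51). Gnrh1 was at 7.11 in the VNO mesenchyme against 5.71. These differences between groups were not tested.

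**Figure D5:**
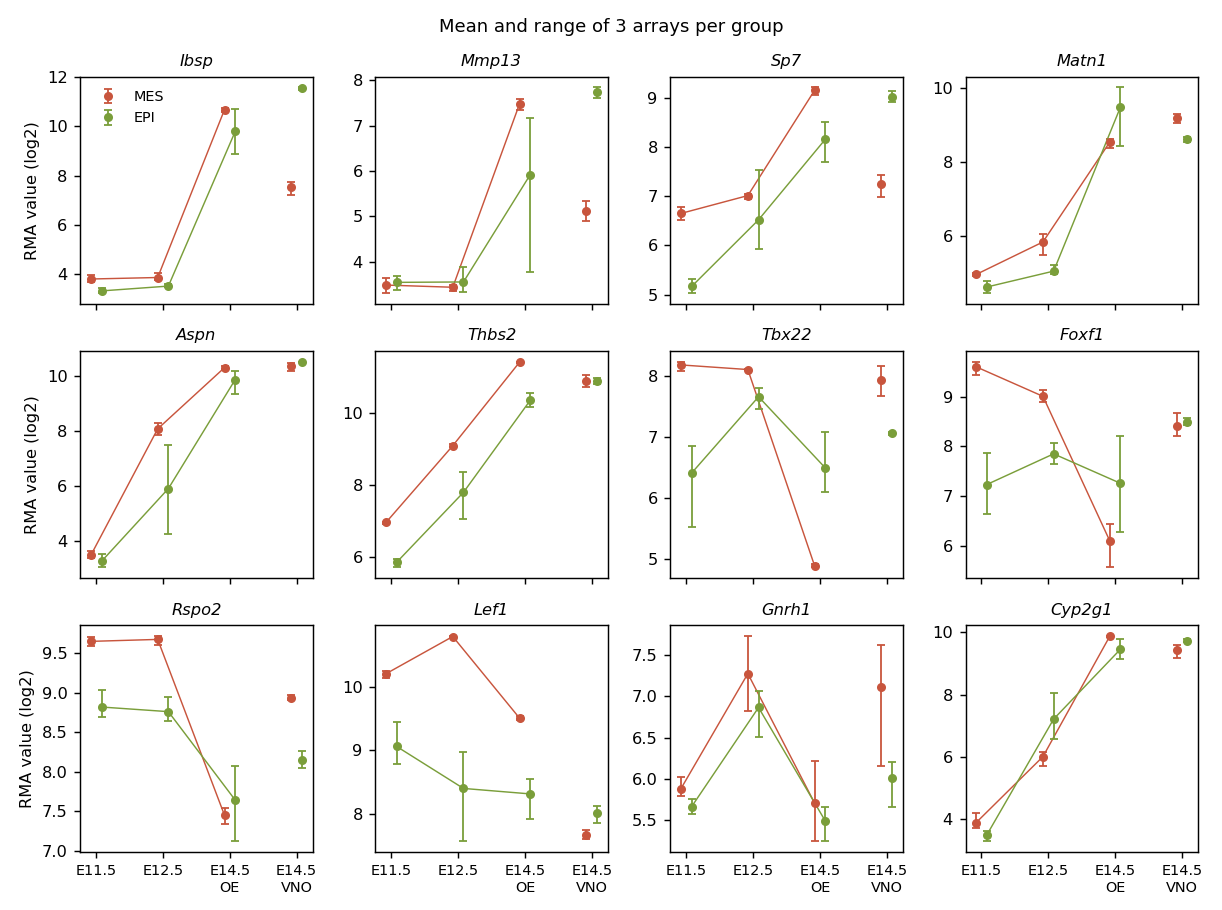
RMA value (log2) of 12 genes in MES (red) and EPI (green) over the 3 ages, as the mean of 3 arrays with bars from the lowest to the highest. Ibsp stayed near 4 until E12.5 and reached 10.68 in MES OE E14.5, and Tbx22 fell to 4.88 there but stood at 7.95 in the VNO mesenchyme.

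Bone genes were not limited to the mesenchymal fraction at E14.5. Ibsp was at 8.88 to 10.73 in the EPI OE and at 11.50 to 11.59 in the EPI VNO, above its mean of 7.53 in the MES VNO. Sp7, a marker taken as mesenchymal, was at 8.91 to 9.14 in the EPI VNO and at 6.98 to 7.43 in the MES VNO. Whether a gene changed more in the mesenchyme than in the epithelium was tested with an interaction term on 12 arrays centred on their medians. The MES change was above that of the EPI for 389 genes (2.63%) and below it for 2198 (14.8%), but on the values as deposited for 1041 and 701. The medians of the EPI arrays were 6.96 to 7.06 at E12.5 and 6.55 to 6.61 at E14.5, a shift that centring removes. For Ibsp the change in MES was 0.18 (SE 0.51) above that in EPI, within the error (limma adjusted p = 0.81). Of the 374 genes called higher, 176 (47.1%) were above the EPI OE on all arrays at E14.5 and 49 (13.1%) below, beside 41.6% and 12.7% of all genes. After centring these were 78 (20.9%) and 127 (34.0%), beside 9.98% and 49.1% of all genes. Of the 248 genes called lower, 35 (14.1%) were above the EPI OE and 74 (29.8%) below, and after centring 4 (1.61%) and 164 (66.1%).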

How the data were processed

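RNA was depleted of ribosomal RNA by the authors and hybridized to Affymetrix Mouse Exon 1.0 ST arrays. The deposited values are log2 expression computed by the authors with RMA in Bioconductor, per the methods separately for the 6 arrays of each pair. The submitters' processing notes name RMA and mm9 without a version. The file holds 1 table of 23339 transcript clusters, of which 23238 have values in the time course, so its scale across groups is not established. Clusters with 1 symbol numbered 14996, with several 1019 and with none 7324. Each gene was read on its brightest cluster, and 131 genes had more than 1.

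Groups came from the sample labels. The 6 arrays entered a linear model in limma 3.58.1 (R 4.3.3), with moderated two-sided tests and Benjamini-Hochberg adjustment over all clusters. An exact permutation test of 3 against 3 arrays cannot give a p under 0.1, so none was run. The members and gene lists were chosen with earlier results of these data known. Genes were named by rule. These were the 20 largest rises and 20 largest falls among called genes whose arrays did not overlap. Added were the genes taken from the study, described above, and up to 4 called members of each list in each direction. Further members given with values were chosen after their values were seen. Lists are described by counts and medians. On simulated data limma recovered 59% of changes of 1 and 85% of changes of 2 on the log2 scale among 23238 clusters, with 5 false calls, and Rank Products 14% and 100%, with 83 false calls. The alternatives were Rank Products (100 permutations, the test of the methods), quantile normalization, centring, brighter clusters only, the mean of the clusters of a gene, an intensity trend, other fits, other minimum folds, a replicate block and leaving out each array. Promoters were taken from RefSeq (GRCm38.p6). The number of arrays limits the precision, and background signal was not used here. The arrays of the Dlx5 comparison were not used here.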

Additional observations from a re-analysis of the deposited data

Results flagged for a closer look

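The change from E12.5 to E14.5 differed between the mesenchymal and the epithelial fraction, by the interaction term under all 3 scalings, for 17 of the 40 largest changes. These 40 were picked for their change on the MES arrays that also enter the term, so the count is not independent of that choice. Of all genes 2.63% were above and 14.8% below on centred arrays alone. The share under all 3 scalings was not counted for all genes. The values here are the MES change minus the EPI change on the log2 scale, on centred arrays. It was positive for Olfr812 (2.39), Smpd3 (1.38) and Cyp2g1 (1.26), genes that rose more in the mesenchyme. It was negative for genes that rose more in the epithelium, namely Serpinb11 (−2.65), Bpifa1 (−2.55), Matn1 (−2.10) and Cbr2 (−1.57). It was also negative for genes that fell in the mesenchyme and did not fall as far in the epithelium, or rose there: Vtn (−3.78), Cbln1 (−3.75), Tbx18 (−3.53), Foxf2 (−2.88), Foxf1 (−2.68), Tbx22 (−2.42), Foxc2 (−2.35), Ogfrl1 (−1.77), Lix1 (−1.64) and Rspo2 (−1.47). Tbx18 had a mean of 5.89 in the EPI at E12.5 and 7.47 in the EPI OE at E14.5, and Vtn of 5.94 and 7.76, while in the mesenchyme both fell by 1.59 to 1.60. The mean level of epithelial markers in the MES arrays, given above, was also higher at E14.5. That of mesenchymal markers in the EPI arrays was 9.41 to 9.91 at E12.5 and 9.83 to 10.37 at E14.5. Whether the share of each tissue in the arrays changed was not tested, nor was its part in the differences between fractions.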

How the results depend on the processing

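Of 139 named genes that were called, 89 kept their direction and call under all alternatives scored gene by gene. Other minimum folds were not scored this way, and the fit on brighter clusters covered 96 of the 153 named genes. None of the 153 turned its direction. Quantile normalization ended 18 calls, centring 7 and Rank Products 48. The 374 rises and 248 falls became 268 and 46 with Rank Products, of which the lower count moved, and the falls became 129 after quantile normalization. With clusters brighter than the median only, where fewer genes were tested, 129 rose and 149 fell. Falls thus outnumbered rises among the brighter clusters, unlike among all. Without a minimum fold 1947 rose and 5811 fell, and with a minimum log2 fold change of 2 these were 49 and 5. Leaving out 1 array gave 350 to 368 rises and 220 to 287 falls. The replicate block gave 360 and 238, and among the named genes ended the call of Gnrh1 only. Arrays with the same number did not deviate together (r of −0.02, −0.13 and −0.05), so the numbers do not pair the samples. Of the differences between fractions, 389 larger and 2198 smaller in the MES, the values as deposited gave 1041 and 701, quantile normalization 1376 smaller, the replicate block 376 and 2188, and leaving out 1 array 335 to 438 and 1988 to 2386. The causes were not tested. Background signal per probe was not used here, so changes of genes at low values are the least certain.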
